A study of Arabidopsis thaliana with 12 samples.

Results

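The lines gra1-D and gra2-D of Arabidopsis thaliana were compared with each other on ATH1 arrays, 3 arrays against 3, which are 6 of the 12 arrays of the study. Both are grandifolia mutants, dominant lines known for enlarged leaves, and the series title ties them to a duplicated piece of chromosome. Both carry the Col-0 background, as do the wild type and the third line, gra3-D, which enter the fit only to estimate the spread and to give reference levels. Plants were raised in vitro on MS medium, in daily cycles of 16 h light and 8 h dark at 22 °C, and RNA was taken from the vegetative part of stage 1.03 seedlings, 3 biological replicates per genotype. Each mutant stands for 1 line, no treatment was given, and the labels do not say how many seedlings were pooled. Of the 20777 gene loci with a value, 202 lie in a stretch of chromosome 4, from AT4G31170 to AT4G33500, that is raised in gra2-D and not in gra1-D. They were kept apart from the 20575 other loci. The bounds of that stretch were drawn from these same arrays, so its values are described and not tested.

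In a plant with an extra copy of a chromosome piece, transcripts from that piece often rise about in proportion to the copies, although single genes can be held closer to their normal level. Genes on other chromosomes can change too, because regulators encoded in the piece act on targets elsewhere or because the plant's growth state differs. Seedling leaves at this stage are dividing and expanding, and defence, sugar, hormone and clock genes are active in them.

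Values are log2 expression values, and a difference is gra1-D minus gra2-D, so that a negative one is higher in gra2-D. A locus was called where limma's p-value, adjusted by Benjamini-Hochberg over all 20777 loci, was under 0.05. Log2 means under 5, which 35.4% of loci had over the 12 arrays, were treated as close to the array background. Where one of the lines lay under 5 the difference is a lower bound, and where both did its size is uncertain. Array medians lay between 6.36 and 6.43. Correlations across genes, which are not independent replicates, were 0.996 to 0.997 within each of the lines and 0.995 to 0.996 between them. The leaf genes RCA, LHCB4.1 and LHCB5 stood at mean log2 values of 14.1 to 14.2, while the floral identity genes AP1 and LFY and 11 of 11 seed storage markers lay under 5. Of 11 root markers 6 lay under 5, the highest was PYK10 with a mean of 10.8 in both lines together, and their summed linear level was 2400.2 to 3097 in gra1-D and 2024 to 2422 in gra2-D. None of these markers was called, and 1 root marker and 0 seed markers differed at an unadjusted p under 0.05. The part of root RNA in the results was not tested. Fewer cells of a type and less RNA per cell cannot be told apart in such samples.

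The stretch on chromosome 4 stood higher in gra2-D almost throughout. Of its 202 loci 137 were expressed, meaning that their log2 values averaged 6 or more across the 12 arrays. Their median difference was -0.93, a 1.91-fold higher level in gra2-D, and the outer deciles of single genes were 1.65-fold and 2.1-fold. Relative to each gene's mean over the 12 arrays, the median expressed gene stood at -0.29, -0.32 and -0.27 on the gra1-D arrays and at 0.65, 0.58 and 0.64 on the gra2-D arrays. The 3 arrays of each line lay close together and far from those of the other. Against wild type the stretch median was 0.86 in gra2-D, -0.054 in gra1-D and 0.033 in gra3-D. In gra3-D the last genes of the stretch were raised all the same, SQD1 by 0.99 and AT4G33500 by 0.90, while WRKY11 near its start differed from wild type by -0.19. Since the bounds follow from this difference, the calls in the stretch only describe it. They numbered 148 of 202 loci (73.3%), 135 of the 137 expressed ones and 13 of the 65 others, all higher in gra2-D, where 1.23% of all loci together and 0.525% outside the stretch were called.

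The bounds were set where the difference begins and ends, so the genes beside them differ by that choice. The last 3 expressed genes before it, AT4G31140, AT4G31150 and DCAF1, differed by 0.04, -0.11 and -0.12, and the first 3 inside, AT4G31170, AT4G31180 and AT4G31200, by -1.02, -0.93 and -0.91. At the far edge, AT4G33480, AT4G33490 and AT4G33500 differed by -1.01, -1.48 and -0.98. DHS2, PAA1 and KUP5, the first 3 expressed genes beyond, stood at 0.02, -0.02 and -0.01. From there to the end of chromosome 4 runs an arm of 561 loci that is raised in both lines. The median of its 383 expressed genes was 0.85 above wild type in gra1-D and 0.88 in gra2-D, values that share the wild-type arrays, and the median difference between both lines was -0.011.

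**Figure D1:**
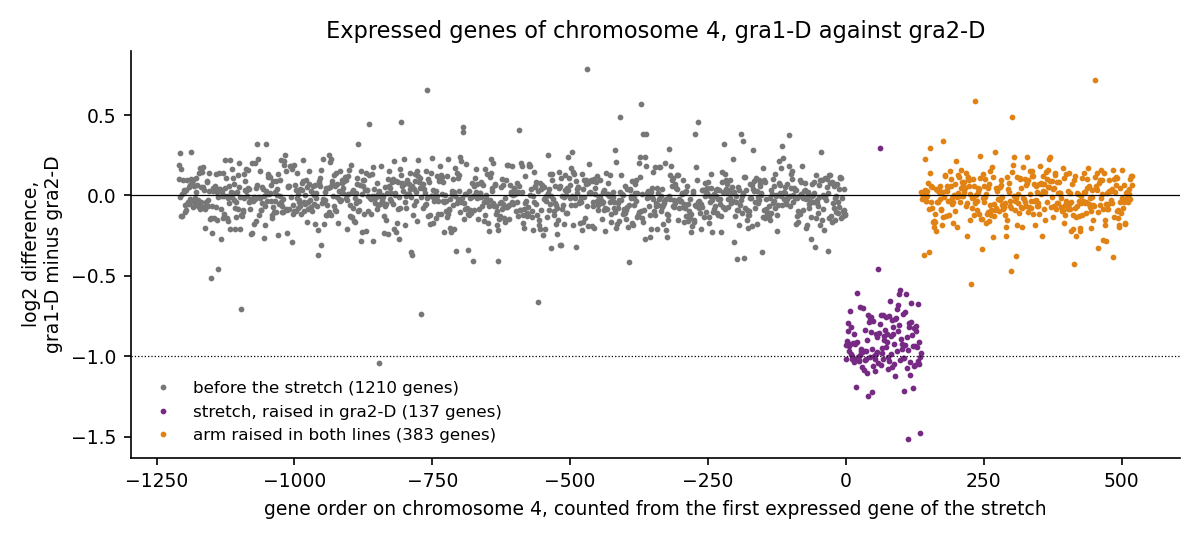
Log2 difference, gra1-D minus gra2-D, of each expressed gene of chromosome 4 (y axis) against its rank along the chromosome, counted from the first expressed gene of the stretch (x axis); 3 arrays per line. The 137 genes of the stretch sit around -0.93, while the genes before it and the 383 genes of the arm raised in both lines sit around 0.

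Members of the stretch cover many roles. Among defence genes, WRKY11, a transcription factor gene of the defence response, stood at 7.67, 7.85 and 7.62 in gra1-D and at 8.90, 8.98 and 8.86 in gra2-D, a difference of -1.19 ± 0.10 (SE). WRKY18, a related regulator, differed by -0.78 ± 0.10, a lower bound because its gra1-D mean was 4.74. CYP83B1, an enzyme of indole glucosinolate synthesis, differed by -0.92 ± 0.15. SQD1, which makes the head group of plastid sulfolipids, differed by -0.88 ± 0.071, and AUR1, a mitotic Aurora kinase gene, by -0.68 ± 0.11. The stomatal polarity gene AT4G31805 (POLAR) stood at 6.23, 5.98 and 5.82 in gra1-D and at 6.91, 6.5 and 6.73 in gra2-D (-0.70 ± 0.12). All of these genes had the 3 arrays of gra2-D above the 3 of gra1-D. CYP82C4 was near 3.1 in both lines, with a difference of -0.07 ± 0.061, and gives no information on size.

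The departures from the common shift were few. EDA39 was the furthest above it, with 6.93, 6.48 and 6.43 in gra1-D against 8.62, 7.97 and 7.80 in gra2-D (-1.52 ± 0.22). AT4G33490 (-1.48 ± 0.13), AT4G31930 (-1.25 ± 0.081) and AT4G32050 (-1.22 ± 0.095) followed. At the other end stood PDE334, a subunit of the chloroplast ATP synthase, at 13.1 in gra1-D and 13.5 in gra2-D (-0.46 ± 0.062). HB-8, a homeobox gene of the procambium, stood at 6.33, 6.24 and 6.12 against 6.76, 6.87 and 6.83 (-0.59 ± 0.083). RSZ22, a splicing factor gene of the serine/arginine-rich group, stood at 9.36, 9.33 and 9.36 against 10.08, 9.82 and 9.98 (-0.61 ± 0.078). IAA29, an auxin response repressor, was the single expressed gene of the stretch that was not lower in gra1-D. It read 7.14, 6.43 and 6.94 in gra1-D and 6.82, 6.33 and 6.47 in gra2-D, so that the lines overlapped (0.29 ± 0.36). AT4G32340 was the other expressed gene without a call, although its arrays did not overlap (-0.98 ± 0.22).

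The size of the shift went with signal level. The median difference was -0.96 for the 60 loci with a mean log2 value of 6 to 8, -0.94 for 57 loci at 8 to 10, -0.86 for 18 at 10 to 12 and -0.54 for the 2 at 12 or more. It was -0.65 for 13 loci at 5 to 6 and -0.092 for the 52 under 5, of which 5 were called.

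**Figure D2:**
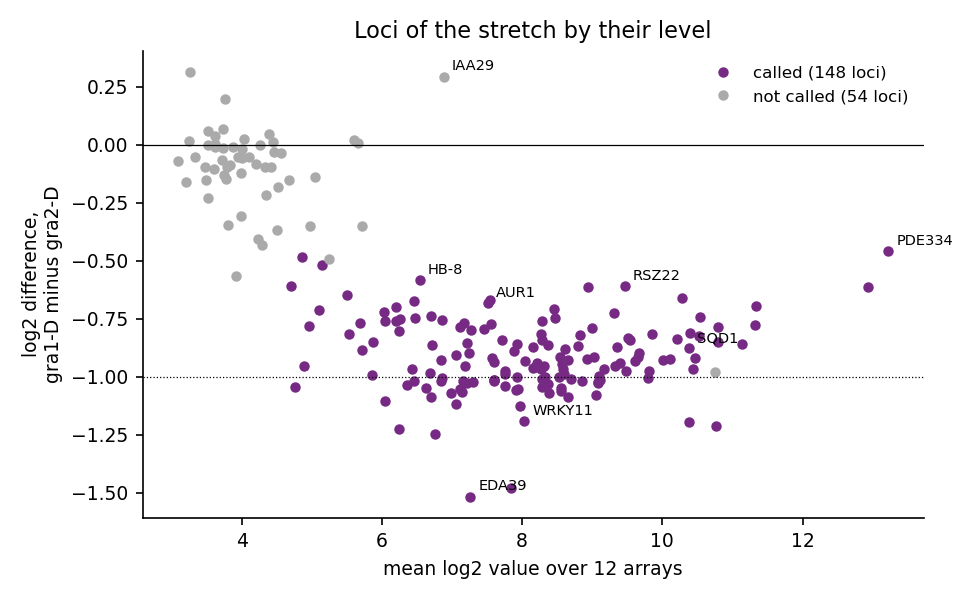
Log2 difference, gra1-D minus gra2-D, of the 202 loci of the stretch (y axis) against their mean log2 value over 12 arrays (x axis); purple points are the 148 called loci and grey points the other 54. Loci under 5 scatter around 0, loci from 6 to 10 lie near -1, and IAA29 is the single expressed gene above 0.

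Outside the stretch, few genes separated both lines. Limma called 108 of 20575 loci (0.525%), 50 higher in gra1-D (0.243%) and 58 higher in gra2-D (0.282%). At an unadjusted p under 0.05 the count was 1681. All 108 had the 3 arrays of one line above the 3 of the other, as did 2668 (13%) of all loci outside the stretch. The median difference over these loci was -0.0078. Called differences ran in size from 0.30 to 2.98 on the log2 scale. Only 24 reached 1.5-fold and 8 reached 2-fold. The called loci were spread over the nuclear chromosomes, with 24 of 5400 on chromosome 1, 17 of 3239 on chromosome 2, 28 of 4152 on chromosome 3, 11 of 2304 on chromosome 4 before the stretch and 25 of 4815 on chromosome 5. Of the 108, 61 were expressed, 16 lay under 5 in one line and 16 in both. The count fell to 60 without gra1-D replicate 2 and to 60 without gra2-D replicate 3. Equal replicate numbers of both lines varied together, and with the number as a block, fitted without the gra3-D arrays, 222 loci (1.08%) were called, 106 higher in gra1-D and 116 in gra2-D. That set held 103 of the 108, and the block with both lines alone gave 213 calls (1.04%).

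QQS and CNGC12 differed most, both higher in gra2-D. QQS, which affects how carbon is split between starch and protein in leaves, stood at 7.47, 7.27 and 7.02 in gra1-D and at 10.27, 10.13 and 10.30 in gra2-D. The difference was -2.98 ± 0.13 (SE), 7.89-fold (limma adjusted p = 6.44e-08). The other genotypes stood between or below them, wild type at 9.33 and gra3-D at 6.83. QQS was thus lower than wild type in gra1-D (-2.07 ± 0.13) and higher in gra2-D (0.91 ± 0.13), with both differences called, as were those of 5.58% and 11.5% of all loci against the same wild-type arrays. CNGC12, a cyclic nucleotide-gated ion channel gene linked to defence signalling, stood at 5.73, 5.89 and 5.92 in gra1-D and at 8.40, 7.96 and 8.38 in gra2-D. It was 5.27-fold higher in gra2-D (-2.40 ± 0.12, limma adjusted p = 4.72e-07). Here gra2-D (8.25) and gra3-D (8.28) stood near wild type (8.41), and gra1-D (5.85) was the genotype that stood apart. The 17 other measured members of the channel family, looked up after the values were seen, were not called and differed by -0.26 to 0.15.

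In the FLC clade, a group of MADS-box repressors of flowering, 3 genes were also higher in gra2-D. FLC itself stood at 4.36, 4.40 and 4.60 in gra1-D and at 5.76, 5.32 and 6.05 in gra2-D, with no overlap (-1.26 ± 0.18, limma adjusted p = 0.0014). Wild type stood at 5.26 and gra3-D at 4.56. MAF5, a paralog, stood at 3.72, 3.71 and 3.66 in gra1-D and at 5.45, 5.20 and 4.53 in gra2-D (-1.37 ± 0.16, limma adjusted p = 0.000223), and wild type and gra3-D, at 3.70 and 3.79, stood with gra1-D. The differences of FLC and MAF5 are lower bounds, since gra1-D lay close to background. Its chromosomal neighbour MAF4 differed by -0.44 ± 0.074 (limma adjusted p = 0.00484) with both lines under 5, so that its size is uncertain. MAF1, the clade member on chromosome 1, stood at 6.15 and 6.22 (-0.07 ± 0.063, limma adjusted p = 0.839). FLC thus stood apart from wild type in gra1-D (-0.81 ± 0.18, limma adjusted p = 0.018) and was not called in gra2-D (0.45 ± 0.18, limma adjusted p = 0.148), while MAF5 did the opposite (0.00 ± 0.16 in gra1-D and 1.36 ± 0.16 in gra2-D). Both pairs of differences share the wild-type arrays.

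The other leading genes higher in gra2-D had smaller differences. HLL (HUELLENLOS), a mitochondrial ribosomal protein gene needed for ovule growth, stood at 6.4, 6.30 and 6.17 in gra1-D and at 6.93, 6.97 and 7.10 in gra2-D (-0.71 ± 0.078, limma adjusted p = 9.07e-05). ZIFL2, a membrane transporter gene of the zinc-induced facilitator group, stood at 5.57, 5.58 and 5.60 against 6.32, 6.20 and 6.4 (-0.73 ± 0.088, limma adjusted p = 0.000242). ATG8B, a ubiquitin-like protein gene of autophagy, stood at 5.73, 5.67 and 5.67 against 6.47, 6.25 and 6.15 (-0.60 ± 0.11, limma adjusted p = 0.0143). In all 3 genes the lines did not overlap. AT2G37130 (-1.17 ± 0.20), AT5G60610 (-1.05 ± 0.082, both lines under 5), AT3G13270 (-0.82 ± 0.12), AT4G18580 (-0.67 ± 0.090), AT4G25020 (-0.65 ± 0.11), AT3G01410 (-0.61 ± 0.10) and AT2G40960 (-0.59 ± 0.096) have no symbol in the gene table, which lists AT3G13270 as a pseudogene. AT5G64120, a peroxidase gene (PRX71), differed by -0.78 ± 0.17 with limma adjusted p = 0.0489. With gra1-D at 4.60, this is a lower bound. Its call was lost on leaving out any 1 of 9 arrays (up to 0.206). That of ATG8B ended without gra1-D replicate 2 or 3 or gra2-D replicate 1 (up to 0.0754).

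**Figure D3:**
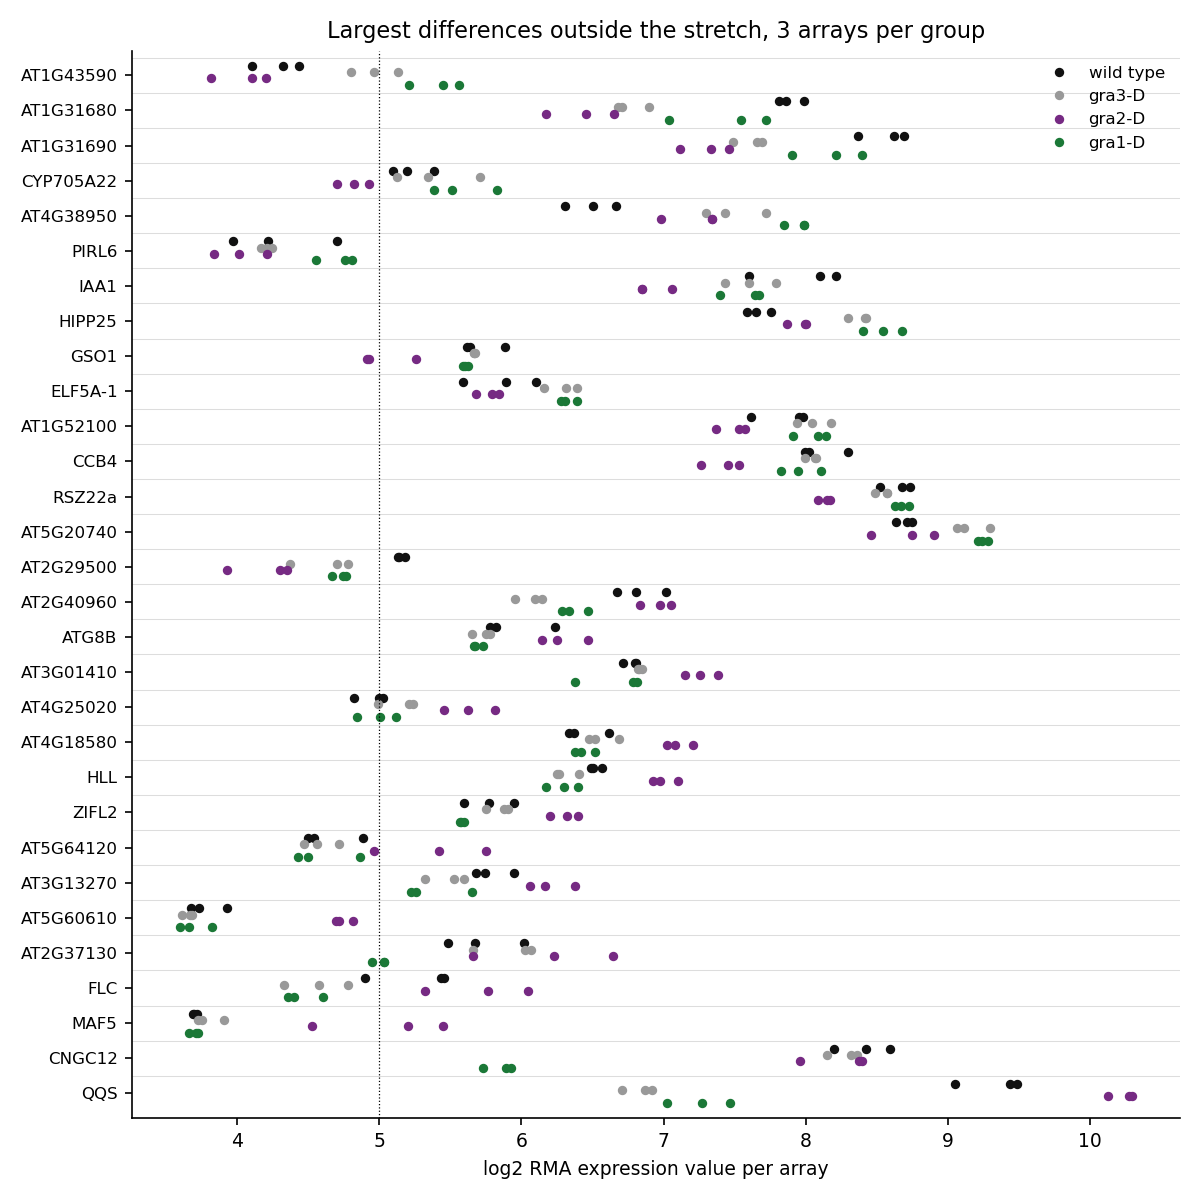
Log2 value on each array (x axis) for the 15 loci with the largest called difference in each direction outside the stretch (y axis), by genotype, 3 arrays each; the dotted line marks a log2 value of 5, close to background. Green points (gra1-D) and purple points (gra2-D) do not overlap in any of them, QQS and CNGC12 are the furthest apart, and gra3-D (grey) lies on the side of gra1-D for QQS and of gra2-D for CNGC12.

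Among genes higher in gra1-D, the largest difference was that of AT1G43590, which the gene table lists as a pseudogene. It stood at 5.45, 5.56 and 5.21 in gra1-D and at 3.81, 4.1 and 4.2 in gra2-D, so that 1.37 ± 0.13 is a lower bound (limma adjusted p = 1.7e-05). The adjacent loci AT1G31680 and AT1G31690 followed. AT1G31680 stood at 7.54, 7.72 and 7.04 in gra1-D and at 6.46, 6.65 and 6.18 in gra2-D (1.01 ± 0.15, limma adjusted p = 0.00217), and AT1G31690 at 8.21, 8.40 and 7.91 against 7.34, 7.11 and 7.46 (0.87 ± 0.13, limma adjusted p = 0.00165). The wild-type means lay above those of both lines, at 7.89 and 8.56. Against wild type gra2-D was called at both loci (-1.46 ± 0.15 and -1.26 ± 0.13). The differences of gra1-D from the same wild-type arrays were not called (-0.45 ± 0.15, limma adjusted p = 0.117, and -0.39 ± 0.13, limma adjusted p = 0.108). The nearest measured loci on either side, AT1G31670 (0.05 ± 0.16) and AT1G31710 (0.21 ± 0.16), were not called.

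Several regulators and enzymes were higher in gra1-D. RSZ22a, a splicing factor gene, stood at 8.67, 8.73 and 8.63 in gra1-D and at 8.18, 8.09 and 8.15 in gra2-D (0.54 ± 0.070, limma adjusted p = 0.00042), with wild type at 8.65. RSZ22, its paralog, is the gene of the stretch given above as 0.61 higher in gra2-D. How far probes respond to close paralogs, as in the RSZ22, SWEET and MAF genes, was not tested. IAA1, an auxin-inducible repressor of auxin responses, stood at 7.64, 7.67 and 7.40 against 7.06, 6.85 and 6.85 (0.65 ± 0.14, limma adjusted p = 0.0449). GSO1, a receptor kinase gene of the embryo cuticle and the root barrier, stood at 5.59, 5.60 and 5.62 against 4.93, 4.91 and 5.26 (0.57 ± 0.095, limma adjusted p = 0.00496). ELF5A-1, a translation factor gene, differed by 0.55 ± 0.11 and CCB4, needed to assemble the cytochrome complex of photosynthetic electron transport, by 0.54 ± 0.10. The cytochrome P450 gene CYP705A22 differed by 0.76 ± 0.14, a lower bound with gra2-D at 4.82, and PIRL6, a leucine-rich repeat protein gene, by 0.69 ± 0.15 with both lines under 5. The loci AT1G52100 (0.55 ± 0.11), AT5G20740 (0.54 ± 0.10) and AT2G29500 (0.53 ± 0.12, both lines under 5) complete the leading genes outside the arm raised in both lines.

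Many of these calls higher in gra1-D were lost when 1 array was left out. Those of PIRL6, IAA1 and AT2G29500 were lost on leaving out any 1 of 9, 8 and 8 arrays, with limma adjusted p up to 0.168, 0.19 and 0.152. Some of these were arrays of wild type or gra3-D, which enter the fit but not the difference. ELF5A-1 and AT1G52100 lost theirs without any 1 of 5 and 4 arrays of both lines (up to 0.115 and 0.0871). CYP705A22 lost its call without gra1-D replicate 3 or gra2-D replicate 1 or 3 (up to 0.0812), CCB4 without gra1-D replicate 2 or gra2-D replicate 3 (up to 0.0723) and AT5G20740 without gra1-D replicate 1 or 2 (up to 0.0594). The calls of QQS, CNGC12, FLC, MAF5, HLL, ZIFL2, RSZ22a, GSO1, AT1G43590, AT1G31680 and AT1G31690 held without any 1 array.

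Within the arm raised in both lines, 3 of 561 loci (0.535%) were called, a share close to that outside the stretch. With the block 9 of the 561 were called, against 1.08% of all loci outside the stretch. HIPP25, a gene of a metal-binding isoprenylated protein, stood at 8.68, 8.40 and 8.54 in gra1-D and at 8.00, 8.00 and 7.87 in gra2-D (0.58 ± 0.081, limma adjusted p = 0.000913). AT4G38950 stood at 7.99, 7.85 and 7.99 against 7.34, 6.98 and 7.34 (0.72 ± 0.13, limma adjusted p = 0.00766). CRH1, a gene of the MORC ATPase family that acts in gene silencing and defence, was higher in gra2-D, with 7.32, 7.24 and 7.0 against 7.62, 7.67 and 7.68 (-0.47 ± 0.095, limma adjusted p = 0.0225). The call of CRH1 ended without any 1 of 5 arrays of both lines (up to 0.109).

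Of the growth genes of that arm, ANT and GRF2 stood close together in both lines. ANT, which prolongs organ growth, stood at 8.16, 8.17 and 7.90 in gra1-D and at 8.06, 7.90 and 7.86 in gra2-D (0.14 ± 0.088, limma adjusted p = 0.726). GRF2 (AT4G37740), a growth-regulating factor gene, stood at 7.91, 7.98 and 7.86 against 7.89, 7.85 and 7.88 (0.05 ± 0.067, limma adjusted p = 0.92). CYCD3;1, a D-type cyclin gene of cell cycle entry, stood at 8.72, 8.81 and 8.53 against 8.42, 8.16 and 8.47, with no overlap but no call (0.34 ± 0.098, limma adjusted p = 0.191). BT5, a BTB protein gene, overlapped between the lines (-0.07 ± 0.29, limma adjusted p = 0.977). Outside the arm, AN3, a partner of growth-regulating factors, differed by 0.09 ± 0.12 (limma adjusted p = 0.908). CDPK2 (AT1G35670), a calcium-dependent kinase gene, stood at 6.91, 7.11 and 6.86 in gra1-D and at 6.99, 6.82 and 6.85 in gra2-D (0.07 ± 0.12, limma adjusted p = 0.925), against 4.84 in wild type. AT5G24240 stood at 4.67 and 4.97, both close to background (-0.31 ± 0.093, limma adjusted p = 0.227), against 8.08 in wild type.

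Further called genes, picked after their values were seen for having a known role, give the range of functions that differed by under 1.51-fold. Of 15 measured sugar transporter genes of the SWEET family 2 were called, both higher in gra2-D, against 0.525% of all loci outside the stretch, and the family's median difference was -0.03. SWEET11, which exports sucrose for phloem loading, stood at 10.09 ± 0.052 (SD, n = 3) in gra1-D and 10.63 ± 0.075 in gra2-D (-0.54 ± 0.070, SE; limma adjusted p = 0.000476), and wild type stood near gra2-D at 10.53. SWEET13 differed by -0.59 ± 0.13 (limma adjusted p = 0.0449), and this call was lost on leaving out any 1 of 8 arrays (up to 0.202). SWEET12, the partner of SWEET11 in phloem loading, differed by -0.60 ± 0.14 with limma adjusted p = 0.056 and no overlap between the lines. The 12 remaining SWEET genes were not called, and SWEET2 (0.27 ± 0.10, limma adjusted p = 0.427) had the largest difference in the other direction.

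In protein turnover and RNA silencing, UBC11, a ubiquitin-conjugating enzyme gene (-0.56 ± 0.067, limma adjusted p = 0.000223), and SGS3, which acts in small RNA silencing (-0.46 ± 0.089, limma adjusted p = 0.0156), were higher in gra2-D. NAC3 (AT3G29035), a transcription factor gene (-0.55 ± 0.082), HA4, a plasma membrane proton pump gene (-0.54 ± 0.094), and PMSR1, which repairs oxidised methionine (-0.45 ± 0.084), were higher there too. CML41 (-0.57 ± 0.086) and CPK6 (-0.36 ± 0.080), a calmodulin-like and a calcium-dependent kinase gene, REV7 (-0.52 ± 0.11), a subunit of a DNA polymerase that bypasses lesions, and SRT1 (-0.33 ± 0.066), a sirtuin deacetylase gene, completed that side. CML41 lay under 5 in both lines and HA4 in gra1-D (4.97). Higher in gra1-D were BCCP2, a subunit of plastid acetyl-CoA carboxylase (0.43 ± 0.074), ACLA-2, a subunit of the citrate lyase that supplies cytosolic acetyl-CoA (0.42 ± 0.075), and mSFC1, a mitochondrial carrier gene (0.47 ± 0.072). VLN1, an actin-bundling villin gene (0.53 ± 0.099), XIJ, a myosin gene (0.42 ± 0.077), and CRY3, a cryptochrome gene of organelle DNA repair (0.43 ± 0.078), were higher in gra1-D as well. In gra2-D, mSFC1 (4.57), VLN1 (4.97) and XIJ (4.62) lay under 5. Without 1 array, SGS3, PMSR1, CPK6, REV7, SRT1, VLN1, XIJ and CRY3 lost their calls in at least 1 case (adjusted p up to 0.213 for CPK6), while UBC11, NAC3, HA4, CML41, BCCP2, ACLA-2 and mSFC1 kept theirs.

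Gene lists of 28 pathways and cell types gave few differences. Of 445 members outside the stretch 8 (1.8%) were called, against 0.525% of all loci there. The lists were chosen with earlier results of these data known. They hold genes which those results had named, QQS, CNGC12 and FLC among them, so the higher share is no evidence about the lists. Of the 18 flowering genes 3 were higher in gra2-D, the FLC clade genes given above, and the list's median difference was -0.022. Among 21 salicylate defence genes CNGC12 was called, with a list median of -0.18 and 15 members at a higher mean in gra2-D. In either direction 8 of the 21 had no overlap, against 13% of all loci outside the stretch. That share was not particular to this list. In the auxin response and the cytokinin response lists 8 of 19 genes each had no overlap, and 0 of 13 in the photosynthesis list. Of 19 sugar starvation and senescence genes QQS alone was called (median -0.051). The D-type cyclin CYCD3;2 stood at 9.32, 9.21 and 9.28 in gra1-D and at 9.0, 8.95 and 8.85 in gra2-D (0.33 ± 0.065, limma adjusted p = 0.0187) and was the 1 of 9 in its list that was called (median 0.089). GA20OX1, which makes gibberellin precursors, stood at 5.68, 5.37 and 5.48 against 5.08, 5.19 and 4.96 (0.43 ± 0.095, limma adjusted p = 0.0438) and was the 1 of 21 gibberellin and brassinosteroid genes (median 0.054). IAA1 was the 1 of 19 auxin response genes (median 0.036). The call of CYCD3;2 ended without any 1 of 4 arrays of both lines (up to 0.0994) and that of GA20OX1 without any 1 of 9 arrays (up to 0.202).

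No member was called in the other lists, which hold chosen genes and not every gene of a pathway. In touch and elicitor response genes 17 of 21 members had a higher mean in gra2-D (median -0.17), led by TCH3, a calmodulin-like gene (-0.97 ± 0.33, limma adjusted p = 0.329), and 6 differed at an unadjusted p under 0.05, as did 1681 of the 20575 loci outside the stretch. In cytokinin response genes 16 of 19 had a higher mean in gra1-D (median 0.11), with 4 at an unadjusted p under 0.05, among them ARR15, a type-A response regulator gene (0.40 ± 0.12, limma adjusted p = 0.203). In mitotic genes 12 of 14 had a higher mean in gra1-D (median 0.14), with 4 at an unadjusted p under 0.05, among them PLE, a microtubule cross-linker gene of cell division (0.31 ± 0.095, limma adjusted p = 0.244). Over all loci outside the stretch the median was -0.0078, and list members share regulation and plants, so these counts carry no test. Among circadian clock genes 0 of 18 were called and 6 differed at an unadjusted p under 0.05. The lists of cold and drought, jasmonate, aliphatic and indole glucosinolate, flavonoid, heat shock, phosphate starvation, iron handling, sulfate and nitrate, photosynthesis and DNA damage response genes had 0 called. So had those of leaf size regulators, expansin and XTH genes, stomatal lineage, leaf polarity and meristem, trichome, root and seed genes. Each of them had 0 to 4 members at an unadjusted p under 0.05. Their list medians ran from -0.16 for aliphatic glucosinolate genes to 0.18 for trichome genes.

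**Figure D4:**
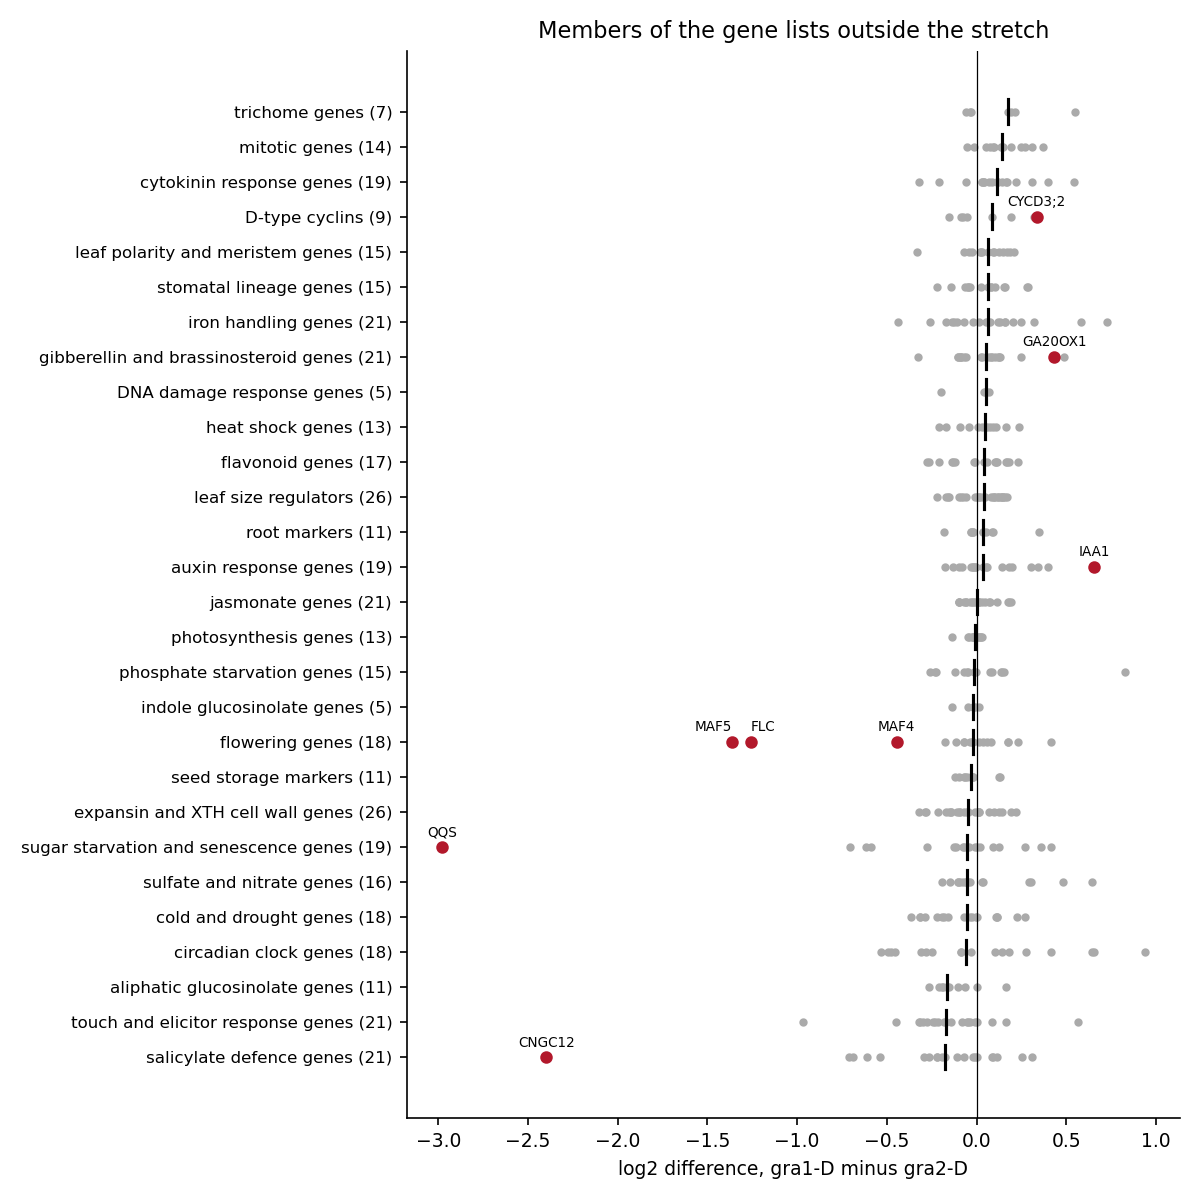
Log2 difference, gra1-D minus gra2-D, of each list member outside the stretch (x axis), by list with the number of measured members (y axis); red points are called, black bars are list medians. QQS, CNGC12, MAF5 and FLC lie furthest from 0, the other 4 called members lie within the range of members that were not called, and the list medians lie between -0.18 and 0.18.

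The pairing of equal replicate numbers changed the picture for genes that vary from replicate to replicate. LHY, a morning gene of the clock, stood at 8.12, 6.96 and 7.49 in gra1-D and at 7.54, 5.88 and 6.34 in gra2-D, so that both lines overlapped. Within each number gra1-D was higher, by 0.58, 1.08 and 1.15. The difference of 0.94 had an SE of 0.43 without the block (limma adjusted p = 0.557) and of 0.11 with it (limma adjusted p = 0.00113). RVE1, a clock-controlled regulator of auxin synthesis, differed by 0.70, 0.75 and 0.48 within numbers (0.64, limma adjusted p = 0.379 without and 0.00123 with the block). When the gra3-D arrays were kept in the blocked fit, RVE1 was not called. TOC1, an evening gene, differed the other way by -0.48, -0.46 and -0.54 (-0.49, limma adjusted p = 0.401 without and 0.036 with the block). The clock genes CCA1 (0.66, limma adjusted p = 0.0548) and GI (-0.46, limma adjusted p = 0.0681) were not called with it.

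The iron regulators bHLH39 and BHLH101, which act under iron deficiency, were higher in gra1-D with the block. They were the only 2 of 21 iron handling genes called with it, against 1.08% of all loci outside the stretch. For bHLH39 the differences within numbers were 0.74, 0.79 and 0.65 (0.72, limma adjusted p = 0.666 without and 0.00014 with the block), and for BHLH101 the mean was 0.58 (0.718 and 0.0269). ROT3, a brassinosteroid synthesis gene in the arm raised in both lines, differed by 0.49, 0.50 and 0.47 (0.49, limma adjusted p = 0.189 without and 0.00541 with the block). WRKY70, a regulator between salicylate and jasmonate responses, was higher in gra2-D by 0.41, 0.84 and 0.89 within numbers (a difference of -0.71, limma adjusted p = 0.504 without and 0.00564 with the block). Also called with the block alone were STZ (-0.45), WRKY53 (0.57), ARR7 (0.31), ARR15 (0.40), DIN10 (-0.59), TPS9 (0.42) and CYCD3;3 (0.32). STZ lay under 5 in both lines. Fitted on both lines alone, the block left ARR7 (limma adjusted p = 0.0959), CYCD3;3 (0.071), CYCD3;2 (0.0676) and GA20OX1 (0.0736) without a call, while 7 of the 18 clock genes had one, against 1.04% of all loci outside the stretch in that fit. These genes were picked because the block changed their call. In the lists of cold and drought, jasmonate, mitotic, leaf size, stomatal lineage, photosynthesis and expansin and XTH genes, 0 members were called with it as well.

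**Figure D5:**
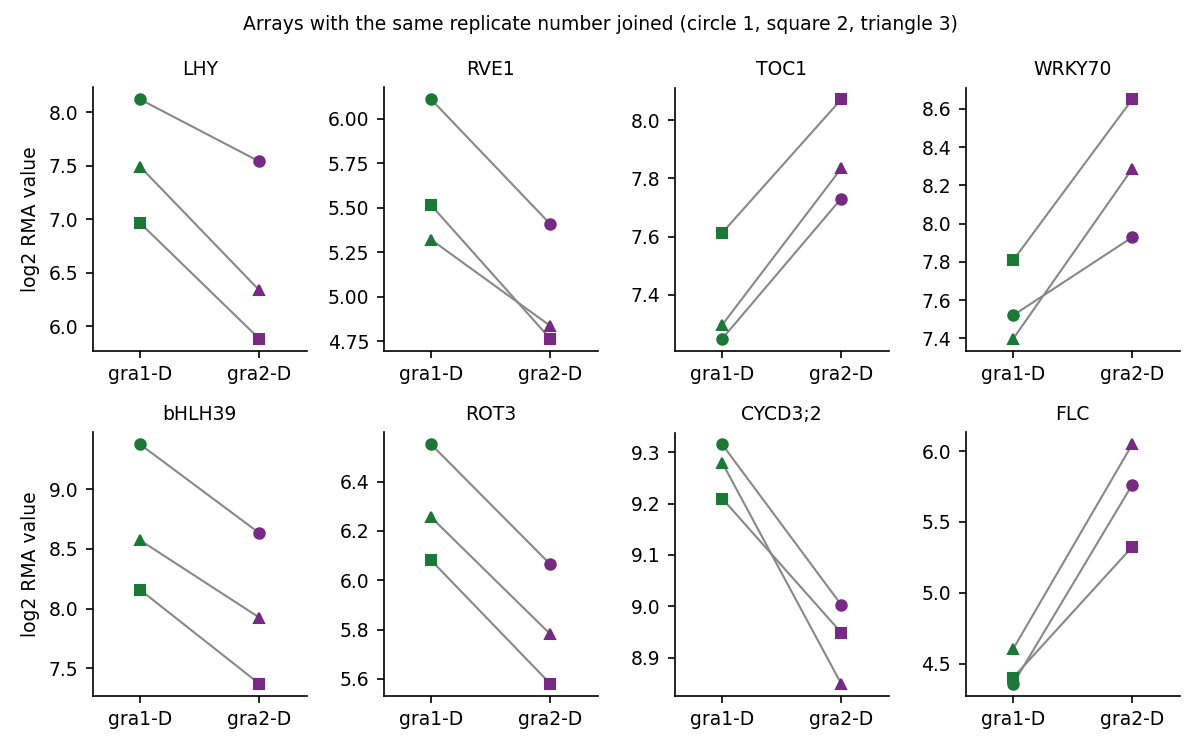
Log2 value (y axis) in gra1-D and gra2-D (x axis) for 8 genes, with arrays of equal replicate number joined (circle 1, square 2, triangle 3). In each of the 8 genes all 3 joined pairs run the same way. LHY, RVE1 and bHLH39 overlap between the lines, while TOC1, WRKY70, ROT3, CYCD3;2 and FLC do not.

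The other genotypes mostly stood with gra1-D where both lines differed. For 93 of the 108 called loci (86.1%) the gra3-D mean was nearer to gra1-D than to gra2-D, against 58.2% of all loci outside the stretch. The wild-type mean was nearer to gra1-D for 81 of the 108 (75%), against 56.3%. The share nearer to gra1-D was similar in both directions, 86% of the 50 loci higher in gra1-D and 86.2% of the 58 higher in gra2-D when taken for gra3-D. No test was made of these shares. CNGC12 was an exception on both counts.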

How the data were processed

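The authors deposited 1 table of log2 values for 12 ATH1 arrays, made with RMA per the submitters' processing notes (version not stated), with 1 row per locus. The probe grouping and the genome build are not given in the sources used here. Gene symbols were looked up in a TAIR10.1 gene table, where 20508 loci matched and 8945 had a symbol of their own. Arrays carry no read depth, and their number limits the precision.

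One model over the 4 genotypes was fitted in R 4.3.3 with limma 3.58.1 (lmFit, eBayes; 8 residual and 5.28 prior degrees of freedom, median SE 0.0886), with no filter, two-sided, and the contrast gra1-D minus gra2-D was taken. The procedure was tested on simulated data. Deviations from the line means of arrays with equal replicate numbers correlated at 0.398, 0.408 and 0.36 between both lines, and those with different numbers at -0.0915 at most. Deviations cancel out within a line, so positive values for equal numbers pull the others down, and the last value is not separate evidence of pairing. The labels do not say what a number shares. Between gra1-D and gra3-D equal numbers did not all correlate positively (-0.208 for number 1), so the block described above was fitted without the gra3-D arrays. This choice was made on these same data, and the block over all arrays was fitted as an alternative. No arrays were identical. The labels call the replicates biological without naming separate cultures, so p-values measure the spread between these samples. Alternatives were other sets of arrays, the block, a filter on low values, quantile normalization, centring, an intensity trend, array weights, a fold minimum and leaving out each array.

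The members, the 28 lists (501 genes, 454 measured, 9 in the stretch) and the rules were chosen with earlier results of these data known. Named outside the stretch are the 15 largest called differences in each direction with no overlap between lines, up to 4 called members of a list and genes named earlier. In the arm they are the 4 largest calls in each direction. In the stretch they are its ends, its 4 largest and 4 smallest differences and its list members. Sequences were not used here.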

Additional observations from a re-analysis of the deposited data

How the results depend on the processing

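Of the 108 calls outside the stretch, 33 were lost under none of 22 alternatives, among which the fold minimum was not counted. Under the 12 that leave out 1 array 35 were never lost, and under the others 50, and 0 changed sign. Loci removed by the filter on low values counted as not lost, although only 61 of the 108 passed it. The number of calls was 66 with the arrays of both lines alone (26 higher in gra1-D). With the replicate block it was 222 without the gra3-D arrays (106 against 116) and 213 with both lines alone (95 and 118). The block over all 12 arrays gave fewer, 143 (66 and 77). The block without the gra3-D arrays changed no call among the genes the rule names outside the stretch except RVE1, given above. Requiring 1.5-fold left 24 (7 and 17). Without any 1 array it ran from 60 to 109, with 22 to 49 higher in gra1-D and 36 to 61 in gra2-D. The lowest totals came without gra1-D replicate 2 or gra2-D replicate 3. Calls higher in gra1-D also fell to 27, 29 and 24 without gra1-D replicate 1, gra1-D replicate 3 and gra2-D replicate 2, and those higher in gra2-D to 37 without gra2-D replicate 1. The share higher in gra1-D, 46.3%, was 54.2% after quantile normalization, 55.3% after centring 32.9% without gra1-D replicate 1 and 31.2% without gra2-D replicate 2. The stretch median was -0.84 over all its loci. The cause of these moves was not tested, beyond fewer arrays in the smaller fits. With 3 arrays a line, loci near background have no measured size.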
